A study of Rattus norvegicus with 15 samples.

Results

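Gemin6 and its partners in the SMN complex were followed in rat livers from a control group, a cirrhosis group and a group given eplerenone, an antagonist of the mineralocorticoid receptor, during cirrhosis induction. The members were the rows of the deposited count table whose gene symbol was Gemin2, Gemin4, Gemin5, Gemin6, Gemin7, Gemin8, Smn1 or Ddx20, which are 8 of 32623 genes. All 8 passed the filter on low counts that kept 14417 genes. The set was chosen because Gemin6 has the smallest p-value between cirrhosis & eplerenone and cirrhosis in these same livers, so every value of Gemin6 is a description without a test, and the question put to the data was whether the 7 partners moved with it.

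The SMN complex works in the cytoplasm, where it loads the ring of Sm proteins onto newly exported small nuclear RNAs (snRNAs). The finished particles, the snRNPs, return to the nucleus as the core of the spliceosome, so every cell that splices pre-mRNA depends on the complex. Smn1 encodes SMN, whose human counterpart is lost in spinal muscular atrophy, and Gemin2 encodes the protein that binds SMN and holds Sm proteins ready for loading. Gemin6 and Gemin7 have folds like those of Sm proteins and pair with each other, and Gemin8 ties that pair to SMN. Gemin5 recognises the snRNA, Ddx20 (Gemin3) is a DEAD-box helicase, and Gemin4 is bound to Ddx20.

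The rats were male Wistar animals. Control rats (n = 4) were untreated. Rats of the cirrhosis group (n = 5) inhaled CCl4 and drank phenobarbital at 0.35 g/L for 12 weeks, and rats of the cirrhosis & eplerenone group (n = 5) received the same plus eplerenone at 100 mg/kg in hazelnut spread from week 8 to week 12. Livers of both CCl4 groups were taken 7 to 10 days after the last CCl4. The labels list 5 controls, of which control replicate 1 was not analysed here. The study states that the sequenced rats were a subgroup picked by how well cirrhosis induction or eplerenone treatment had worked, which limits the groups as a sample of treated animals. The animal labels begin with 13 or 16 in controls and with 15 or 20 in both CCl4 groups. What these prefixes stand for is not given in the sources used here, and they cannot be told apart from CCl4 treatment.

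Libraries held 16157491 to 21574767 counted reads, so that 3 counts stand for 0.121 to 0.191 FPM (reads per 1000000 of the TMM-scaled library). All 10 hepatocyte markers were detected, and in every liver they summed to between 85302 and 171729 FPM, as the liver label requires. Cirrhosis replicate 5 and cirrhosis & eplerenone replicate 3 stood apart from their groups. On the first principal component, which held 67.6% of the variance, cirrhosis replicate 5 lay at 12.5 while the other cirrhosis livers lay between -37.3 and -29.0 and the controls between 30.7 and 36.7. Cirrhosis & eplerenone replicate 3 lay at -32.0 while the others of its group lay between -11.3 and 21.3. Results that rest on these libraries are given with and without them. Both were picked from these same expression values and each lay towards another group. Leaving them out can therefore by itself widen the differences between groups, and fits without them are a description and not separate evidence.

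The promoters of Gemin6 and Smn1 are shown because these genes differed most from control among the members and did so in opposite directions. They come from RefSeq on GRCr8, which is not the build the reads were mapped to (rn6), and run from 250 bases before to 50 after the annotated start. A promoter was found for 7 of the 8 members, Gemin5 being the exception. The Gemin6 promoter is at chr6:20542803-20543102 on the minus strand, and capitals mark the cAMP response element.
Gemin6: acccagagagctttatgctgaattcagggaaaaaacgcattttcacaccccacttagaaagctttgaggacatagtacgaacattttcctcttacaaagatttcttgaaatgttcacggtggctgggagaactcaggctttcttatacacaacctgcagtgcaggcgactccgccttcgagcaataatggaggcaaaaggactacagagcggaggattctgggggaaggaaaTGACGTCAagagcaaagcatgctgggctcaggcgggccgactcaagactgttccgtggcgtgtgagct
The Smn1 promoter is at chr2:33223865-33224164 on the plus strand, and capitals mark a half-site of steroid receptors such as the mineralocorticoid receptor.
Smn1: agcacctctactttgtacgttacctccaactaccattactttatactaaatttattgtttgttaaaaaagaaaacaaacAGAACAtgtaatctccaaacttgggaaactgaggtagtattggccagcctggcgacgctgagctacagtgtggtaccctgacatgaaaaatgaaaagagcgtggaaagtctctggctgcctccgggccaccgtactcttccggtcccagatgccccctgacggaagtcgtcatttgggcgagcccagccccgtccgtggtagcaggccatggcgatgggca
The half-site TGTTCT, read on either strand (AGAACA on the other), occurs in 20.7% of 33469 rat promoters of this length. Of the 7 members with a promoter, Smn1 alone held one, 171 to 166 bases before its start, and the Gemin6 window held none. An inverted repeat of half-sites 3 bases apart was in 0 of the 7 and in 5 promoters of all. The cAMP response element TGACGTCA, a palindrome, was looked for only after the Gemin6 sequence had been read. It occurs in 1.83% of promoters and lay 18 to 11 bases before the start of Gemin6, and in no other member. A match is a run of letters and was not tested as a binding site.

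Gemin6, the Sm-like partner of Gemin7, was low in every cirrhosis liver. Control replicates 2 to 5 had 12.7, 19.6, 24.1 and 10.6 FPM. Cirrhosis replicates 1 to 5 had 2.22, 3.14, 3.61, 2.72 and 3.93 FPM, from 40 to 77 counts. Cirrhosis & eplerenone replicates 1 to 5 had 9.61, 17.8, 10.2, 12.9 and 13.9 FPM, from 188 to 284 counts. The cirrhosis group lay wholly below both others, while control and cirrhosis & eplerenone overlapped. The highest cirrhosis liver was replicate 5, the library that lay towards the controls, and it was still below the lowest liver of either other group. The eplerenone-treated liver that lay with cirrhosis, replicate 3, was likewise above all cirrhosis livers.

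The control group had a mean Gemin6 level of 16.7 ± 6.26 FPM (SD, n = 4), the cirrhosis group one of 3.12 ± 0.684 (SD, n = 5) and the cirrhosis & eplerenone group one of 12.9 ± 3.27 (SD, n = 5). The log2FC was -2.42 (SE 0.28) for cirrhosis against control, which is 18.7% of the control level. It was 2.04 (SE 0.26) for cirrhosis & eplerenone against cirrhosis, a 4.12-fold higher level. Against control, cirrhosis & eplerenone differed by -0.38 (SE 0.26). The 3 comparisons share samples, so a low cirrhosis group sets both of the larger differences. Without cirrhosis replicate 5 and cirrhosis & eplerenone replicate 3, the differences were -2.49, 2.19 and -0.30. Among rats with prefix 15 the difference between cirrhosis & eplerenone and cirrhosis was 2.19, and among those with prefix 20 it was 1.92.

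**Figure D1:**
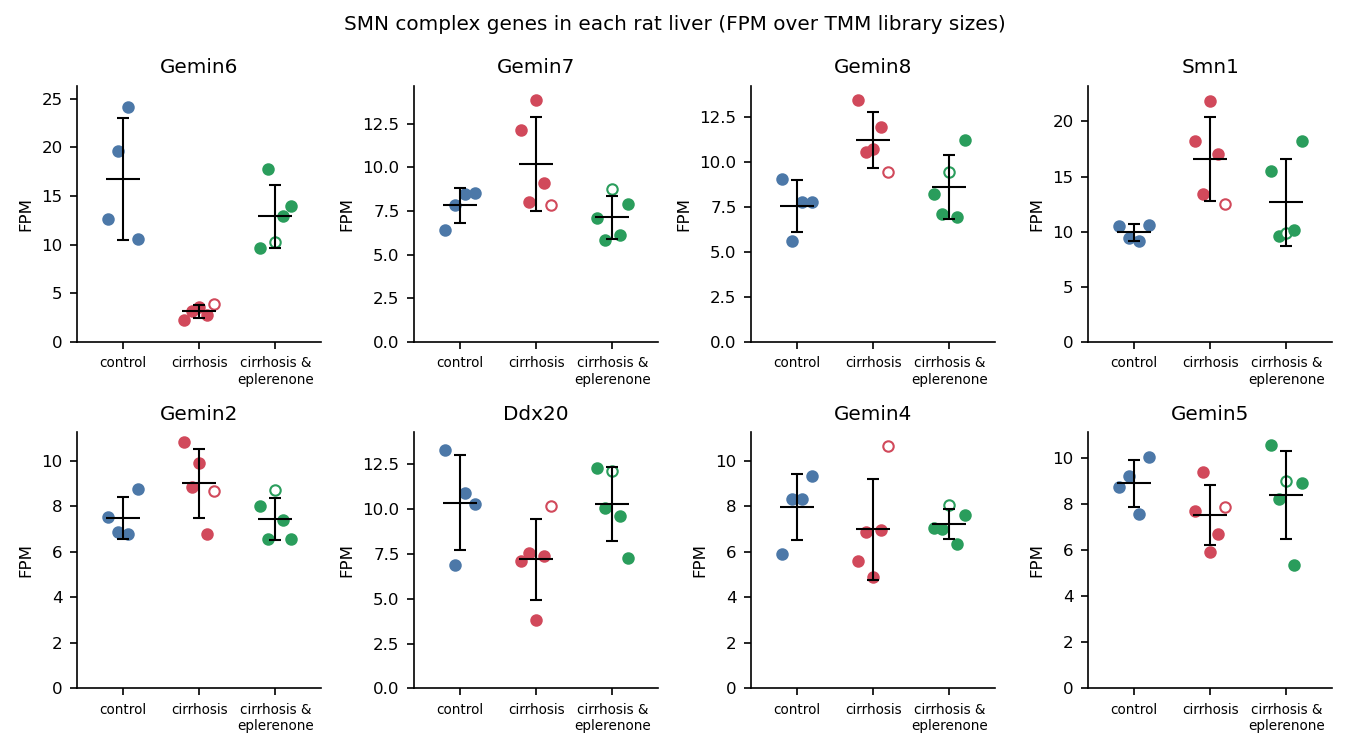
Level of each SMN complex gene in every liver, in FPM on a linear axis from 0, by group; bars are mean ± SD (n = 4, 5 and 5) and open circles are cirrhosis replicate 5 and cirrhosis & eplerenone replicate 3. Gemin6 in cirrhosis lies between 2.22 and 3.93 FPM, below every liver of the other groups, and no partner shows that gap.

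In whole tissue, fewer cells that express a gene and less of its RNA per cell cannot be told apart. In these libraries the summed level of hepatocyte markers averaged 164914 ± 7221 FPM (SD, n = 4) for controls, against 111778 ± 27718 (SD, n = 5) for cirrhosis and 123102 ± 31759 (SD, n = 5) for cirrhosis & eplerenone, with 1 of 10 markers lower in cirrhosis by the test (FDR below 0.05 in edgeR and in DESeq2). Of all 13628 protein coding genes tested, 13.8% were higher and 6.72% lower in cirrhosis than in control by this test. All 7 cholangiocyte markers rose in cirrhosis, where their summed level was 47.8 to 148 FPM against 14.8 to 24.5 in controls. All 6 proliferation markers were higher too, at 33.6 to 81.2 FPM against 5.47 to 12.8, as were 6 of 9 stellate cell and myofibroblast markers, at 266 to 573 FPM against 146 to 247. With eplerenone, 0 of 57 tested genes of the 8 marker lists differed from cirrhosis by edgeR or DESeq2 and 7 had an unadjusted edgeR p below 0.05. Of all genes 0.0147% passed both tools there, 0.492% passed DESeq2 and 14.5% had such a p. The summed proliferation markers spanned 5.26 to 62.0 FPM in cirrhosis & eplerenone. No marker was under 0.05 FPM in all livers. Of the other lists, 3 of 7 lymphocyte, 3 of 3 neutrophil and 1 of 7 endothelial markers were higher in cirrhosis, and 1 of 8 macrophage and 1 of 7 endothelial markers were lower. The part of cell composition in the values below was not tested.

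Gemin6 was also taken as a share of the reads on the 8 genes. This share follows the Gemin6 level and does not measure the make-up of the protein complex. Of all reads on the 8 genes, Gemin6 took 17.1, 26.6, 29.0 and 13.9% in control replicates 2 to 5. In cirrhosis it took 2.87% (exact 95% binomial interval 2.06 to 3.89) in replicate 1, 4.64% (3.68 to 5.76) in replicate 2, 4.84% (3.77 to 6.11) in replicate 3, 3.96% (2.98 to 5.15) in replicate 4 and 5.53% (4.30 to 6.98) in replicate 5. In cirrhosis & eplerenone it took 12.3, 24.7, 13.4, 19.9 and 17.1%. The intervals of the cirrhosis livers lay below those of all other livers. They cover counting error within a liver only and take reads as independent. Since Gemin6 was chosen on these livers, the gap between groups is a description and not a test.

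This share does not depend on how libraries are scaled, since it is taken within a liver. The mean share was 21.6 ± 7.29% (SD, n = 4) for control livers, 4.37 ± 1.01% (SD, n = 5) for cirrhosis and 17.5 ± 5.03% (SD, n = 5) for cirrhosis & eplerenone. The summed level of the 7 partners was 60.0 ± 4.67 FPM (SD, n = 4), 68.7 ± 4.26 (SD, n = 5) and 61.7 ± 7.99 (SD, n = 5) in the same order. Per read of Gemin7, its binding partner, Gemin6 had 1.24 to 2.84 reads in control livers, 0.183 to 0.500 with cirrhosis and 1.17 to 3.05 with cirrhosis & eplerenone. The ratio compares livers and not the 2 genes, since it takes no account of gene length.

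**Figure D2:**
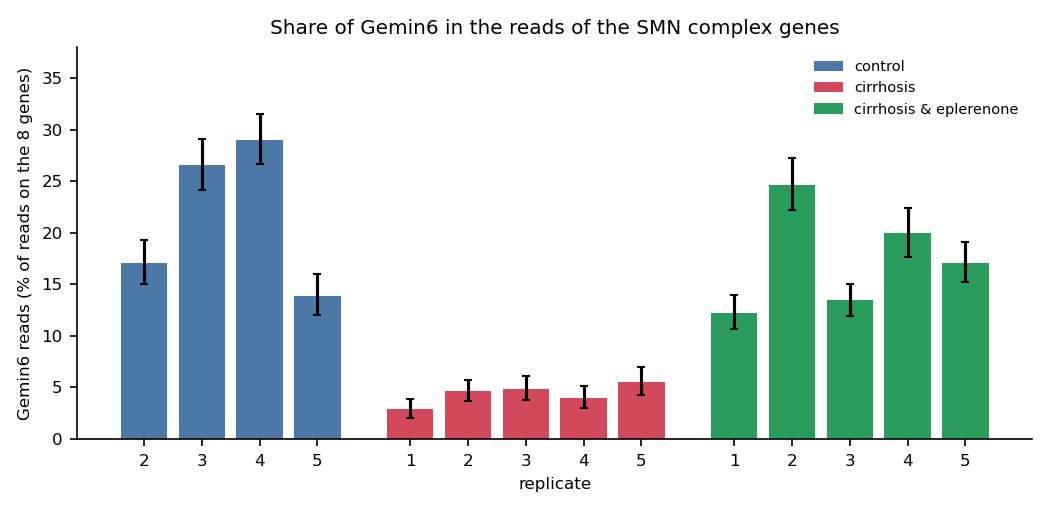
Gemin6 reads as a percentage of the reads on the 8 SMN complex genes in each liver, with exact 95% binomial intervals, grouped as control, cirrhosis and cirrhosis & eplerenone. The cirrhosis livers lie between 2.87 and 5.53% and the others between 12.3 and 29.0%.

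The partners did not share this pattern. Between cirrhosis and control, 1 of the 7 passed the test (FDR below 0.05 in edgeR and in DESeq2, called DEG), and it was higher. Among 13628 protein coding genes tested, 20.6% were DEG in this comparison, 13.8% higher and 6.72% lower. The partners had a median log2FC of 0.27 against -0.01 over all genes, with 4 above 0 and 3 below. With eplerenone, 0 of 7 were DEG against cirrhosis, 1 had an unadjusted edgeR p below 0.05 (14.5% of all genes did) and 0 passed DESeq2 alone (0.492%). Here only 0.0147% of genes were DEG in all, which is 2 genes, so 0 among 7 is what the background gives. The partners' median was -0.27 and that of all genes 0.01. Among rats of prefix 15 the partners' log2FC ran from -0.81 for Gemin7 to 0.87 for Ddx20, and among rats of prefix 20 from -0.24 for Gemin4 to 0.17 for Ddx20. Against control, 0 of 7 were DEG in cirrhosis & eplerenone by edgeR or DESeq2, 0 had an unadjusted p below 0.05, and the shares of all genes were 5.33% for DEG, 10.8% for DESeq2 alone and 20.9% for such a p.

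Smn1, the scaffold of the complex, was the DEG. Control livers had 10.6, 9.43, 9.16 and 10.6 FPM. Cirrhosis livers had 18.2, 13.4, 21.9, 17.0 and 12.5 FPM. Cirrhosis & eplerenone livers had 15.5, 9.57, 9.88, 10.2 and 18.2 FPM. All cirrhosis livers lay above all controls, whereas the eplerenone-treated livers fell into 3 near the control levels and 2, replicates 1 and 5, within the cirrhosis range. The log2FC of cirrhosis against control was 0.74 (SE 0.23, FDR 0.0357 in edgeR and 0.0114 in DESeq2), a direction opposite to that of Gemin6. Between cirrhosis & eplerenone and cirrhosis it was -0.39 (95% interval -0.85 to 0.06, edgeR FDR 0.385), and between cirrhosis & eplerenone and control 0.35 (-0.14 to 0.84, edgeR FDR 0.433).

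The call on Smn1 was a close one. Leaving out one library at a time kept the log2FC between 0.63 and 0.83 but lost the call in 7 of 14 fits. The edgeR FDR was 0.0636, 0.0878, 0.0877 and 0.0771 without control replicates 2, 3, 4 and 5. It was 0.0630, 0.0874 and 0.0601 without cirrhosis replicates 1, 3 and 4. Without cirrhosis replicate 5 and cirrhosis & eplerenone replicate 3 together, the difference was 0.85 with an edgeR FDR of 0.0122.

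Gemin8, which joins the Gemin6 and Gemin7 pair to SMN, lay in the same direction as Smn1 at the edge of the test. It had 9.05, 5.61, 7.75 and 7.76 FPM in control. In cirrhosis it had 13.4, 10.5, 10.7, 11.9 and 9.40 FPM, and in cirrhosis & eplerenone 8.23, 7.07, 9.43, 6.94 and 11.2 FPM. Every cirrhosis liver was above every control, although cirrhosis replicate 5 at 9.40 and control replicate 2 at 9.05 FPM were close. Gemin8 and Smn1 were the 2 of 7 partners whose groups did not overlap, against 20.5% of all genes. The log2FC was 0.57 (SE 0.21), with an FDR of 0.0601 in edgeR and 0.0240 in DESeq2. By DESeq2 alone 28.2% of genes passed, and so did 2 of the 7 partners, Smn1 and Gemin8.

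Without cirrhosis replicate 5, Gemin8 was DEG (log2FC 0.63, edgeR FDR 0.0364), as were 4415 of 13579 genes. Without both libraries that stood apart it was DEG as well (0.65, edgeR FDR 0.0328), which made 2 of 7 partners against 34.6% of genes. In that fit 4 of 7 partners had an unadjusted edgeR p below 0.05, as did 6195 of 13388 genes. Eplerenone-treated livers differed from cirrhosis in Gemin8 by -0.38 (95% interval -0.79 to 0.02, edgeR FDR 0.359).

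Gemin7 was the partner furthest below cirrhosis after eplerenone, where Gemin6 was higher. Control livers had 6.39, 7.86, 8.49 and 8.52 FPM, and cirrhosis livers 12.1, 8.04, 13.9, 9.08 and 7.86. Cirrhosis & eplerenone livers had 7.10, 5.82, 8.78, 6.10 and 7.92 FPM. The 3 groups overlapped, and cirrhosis replicates 1 and 3 alone stood above the rest. The log2FC was 0.38 (SE 0.22, edgeR FDR 0.211) for cirrhosis against control and -0.51 (95% interval -0.95 to -0.07, edgeR FDR 0.316) for cirrhosis & eplerenone against cirrhosis. Without both libraries that stood apart the latter was -0.70 (edgeR FDR 0.0612, DESeq2 FDR 0.0203). In that fit 9.22% of genes were DEG between these groups, and of the 7 partners 0 were, with 3 at an unadjusted edgeR p below 0.05 and 1, Gemin7, past DESeq2. Over all genes in that fit 31.5% had such a p and 18.5% passed DESeq2, so these counts among 7 are near the background. Gemin7l1, a near copy of Gemin7 on chromosome 4, drew 6 to 29 reads per liver beside 93 to 257 on Gemin7, and reads that fit both places were counted at each.

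Gemin2, which binds SMN directly, varied little. Control livers had 6.78 to 8.78 FPM, cirrhosis livers 6.77 to 10.8 and cirrhosis & eplerenone livers 6.56 to 8.70, so the groups overlapped. The differences were 0.27 (SE 0.19, edgeR FDR 0.309) between cirrhosis and control and -0.27 (SE 0.18, edgeR FDR 0.446) between cirrhosis & eplerenone and cirrhosis. Without both libraries that stood apart, they were 0.30 (edgeR FDR 0.255) and -0.37 (edgeR FDR 0.221). Per read of Gemin2, Smn1 had 1.20 to 1.40 reads in control and 1.44 to 2.52 in cirrhosis. In cirrhosis & eplerenone it had 1.135 to 2.775, a range that covers both others.

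Ddx20, the helicase, Gemin4 and Gemin5 were the 3 partners whose log2FC had the signs of Gemin6 in both comparisons with cirrhosis, although with total counts as the scaling Gemin4 (0.11) and Gemin5 (0.058) were above 0 in cirrhosis against control. Ddx20 had the largest differences of the 3. Ddx20 had 13.3, 6.88, 10.9 and 10.3 FPM in control, and 7.10, 7.55, 3.83, 7.38 and 10.2 FPM in cirrhosis. In cirrhosis & eplerenone it had 12.3, 10.1, 12.1, 9.59 and 7.27 FPM. Control replicate 3 fell within the cirrhosis range and 4 of 5 cirrhosis livers within the control range, and the groups overlapped in every comparison. The log2FC was -0.52 (SE 0.27, edgeR FDR 0.164) for cirrhosis against control and 0.51 (95% interval -0.02 to 1.05, edgeR FDR 0.356) for cirrhosis & eplerenone against cirrhosis. Neither difference passed the test. Without both libraries that stood apart, they were -0.66 (edgeR FDR 0.0694, DESeq2 FDR 0.0562) and 0.58 (edgeR FDR 0.153), and again neither passed.

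With all libraries, Gemin4 and Gemin5 had the smallest differences in both comparisons with cirrhosis. Gemin4, the partner of Ddx20, ranged from 5.91 to 9.35 FPM in controls, from 4.91 to 10.7 with cirrhosis and from 6.32 to 8.05 with cirrhosis & eplerenone. Its highest cirrhosis value was that of replicate 5. Gemin5, the snRNA-binding member, ranged from 7.57 to 10.0 FPM in controls, from 5.93 to 9.38 with cirrhosis and from 5.36 to 10.6 with cirrhosis & eplerenone. Against control, cirrhosis differed by -0.19 (edgeR FDR 0.562) for Gemin4 and -0.24 (edgeR FDR 0.418) for Gemin5. Eplerenone-treated livers differed from cirrhosis by 0.04 (95% interval -0.42 to 0.51) for Gemin4 and 0.16 (-0.27 to 0.59) for Gemin5. Without both libraries that stood apart, cirrhosis differed from control by -0.37 (edgeR FDR 0.182) for Gemin4 and -0.24 (edgeR FDR 0.434) for Gemin5. Gemin4 was then further from control than Gemin2 at 0.30.

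No partner's groups were apart between cirrhosis & eplerenone and cirrhosis, where 0.947% of all genes had groups that did not overlap. Against control none were apart from cirrhosis & eplerenone either, where 11.1% of genes were. In the latter comparison the partners' log2FC ran from -0.14 to 0.35.

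**Figure D3:**
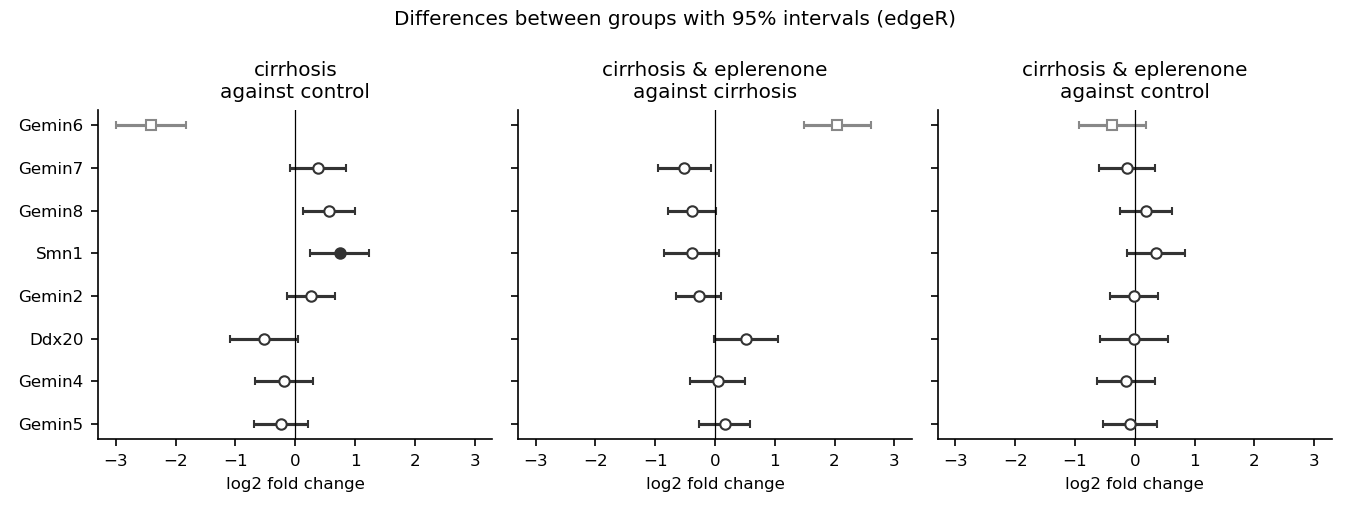
The log2 fold change of each SMN complex gene with its 95% interval in the 3 comparisons; the filled circle is a DEG, open circles are partners that were not, and the grey square is Gemin6, on which the set was chosen. Smn1 is the filled circle at 0.74 in cirrhosis against control, and the partners lie between -0.51 and 0.51 in cirrhosis & eplerenone against cirrhosis.

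The pattern of Gemin6 over the 14 livers was set beside that of 11291 protein coding genes with a mean of at least 1 FPM in every group. Likeness was the root mean square difference of log2(FPM + 1) after each gene was centred on its own mean. It describes these livers only, since all values share the same libraries and Gemin6 was chosen for its pattern. The nearest genes were LOC108348190 at 0.500, Asap3 at 0.536, Slc43a3 at 0.538, Ehd3 at 0.541 and Selenoi at 0.571, where the median gene was at 0.993. Asap3 encodes a GTPase-activating protein for Arf, Slc43a3 a transporter of purine bases and Selenoi an enzyme of phosphatidylethanolamine synthesis.

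Ehd3, a membrane trafficking ATPase of the endocytic pathway, was also the other DEG between cirrhosis & eplerenone and cirrhosis. Its mean level was 37.5 ± 9.89 FPM (SD, n = 4) for controls, 15.1 ± 3.04 (SD, n = 5) for cirrhosis and 39.7 ± 6.71 (SD, n = 5) for cirrhosis & eplerenone. The log2FC between cirrhosis & eplerenone and cirrhosis was 1.39 (edgeR FDR 0.0172). Without cirrhosis replicate 1, cirrhosis replicate 4 or cirrhosis & eplerenone replicate 4, no gene was DEG in that comparison. Without cirrhosis replicate 3, cirrhosis & eplerenone replicate 1 or cirrhosis & eplerenone replicate 2, only 1 gene was DEG. That gene was Gemin6, so Ehd3 lost its call in those fits too. Gstm3l, a glutathione transferase gene, came next by p with -2.49 and overlapping groups. Of the partners, Ddx20 was nearest to Gemin6 at 0.857, which was rank 2309, followed by Gemin4 at 0.922 and Gemin5 at 0.940. Gemin2 at 1.11, Gemin7 at 1.17, Gemin8 at 1.21 and Smn1 at 1.26, rank 9688, were further away than the median gene. A gene that did not vary at all would lie at 0.965, so Gemin4 and Gemin5 were little nearer than a flat line.

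**Figure D4:**
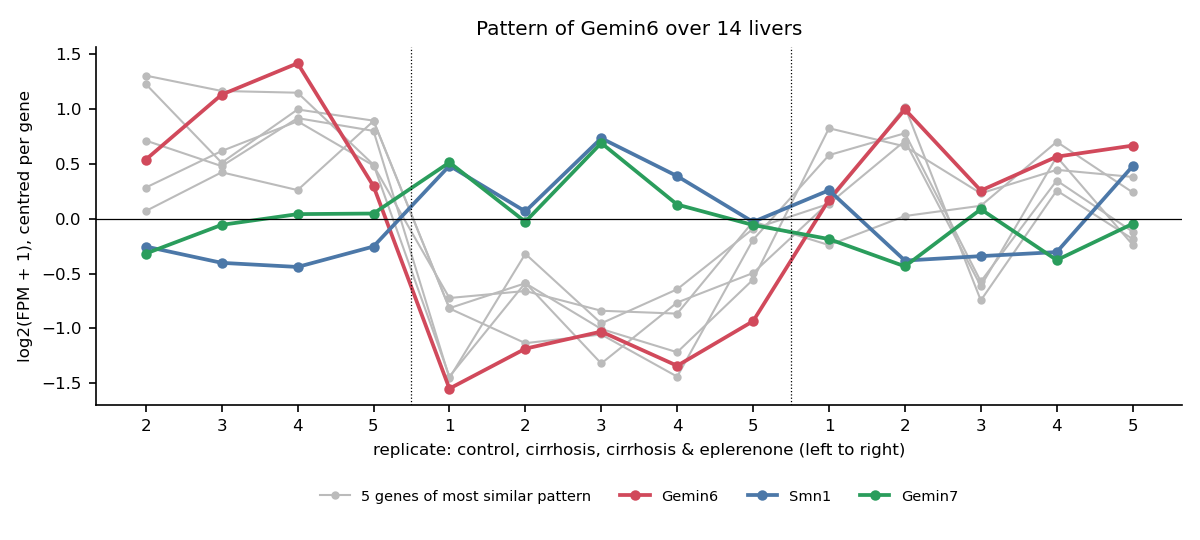
Centred log2(FPM + 1) of Gemin6, Smn1, Gemin7 and the 5 genes of most similar pattern in each of the 14 livers; dotted lines part control, cirrhosis and cirrhosis & eplerenone. Gemin6 is below its own mean in the 5 cirrhosis livers and above it in the other 9, and the grey lines of the similar genes follow it more closely than Smn1 or Gemin7.

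The genes next to Gemin6 on its chromosome did not pass the test in any comparison. In the order of the RefSeq annotation these are Morn2 and Dhx57 on one side and Srsf7 and Galm on the other, with Ttc39d, which had 0 counts, and LOC134479101, which was not analysed here. Morn2 lay opposite to Gemin6, at 0.76 (edgeR FDR 0.0915) between cirrhosis and control and -1.01 (edgeR FDR 0.312) between cirrhosis & eplerenone and cirrhosis. Galm, a galactose-metabolising enzyme, was at -0.71 (edgeR FDR 0.0587, DESeq2 FDR 0.0419) and 0.42 (edgeR FDR 0.399). The unadjusted edgeR p was below 0.05 for Morn2 in both (0.0277 and 0.00332) and for Galm in the former (0.0131). Over all genes the shares with such a p were 37.6% and 14.5% in these comparisons. Galm lay wholly below control in cirrhosis, at 42.9 to 65.9 against 78.6 to 95.5 FPM, the direction of Gemin6. Of all genes, 20.5% had groups that did not overlap there. Dhx57 differed by 0.08 and 0.09 and Srsf7, a splicing factor, by -0.22 and -0.05. The counting is not stated to use strand, so reads from genes that overlap could not be parted.

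Genes that act before and after the SMN complex were grouped in 7 lists with 102 entries, of which 99 were tested. They cover the Sm ring itself, the related LSm proteins, the methylation of Sm proteins, snRNA capping and transport, snRNA transcription and processing by SNAPc and Integrator, and the proteins of the major and minor snRNPs. Between cirrhosis and control 5 were higher and 2 lower, against 13.8% and 6.72% of all genes. The Sm protein Snrpf was higher, with 8.03 ± 2.43 FPM (SD, n = 4) in control and 17.2 ± 7.17 (SD, n = 5) in cirrhosis (log2FC 1.10, edgeR FDR 0.0293). The U1 protein Snrpa rose by 1.12 on the log2 scale (edgeR FDR 0.0174) and the U2 protein Sf3b6 by 0.39 (edgeR FDR 0.0475). The LSm proteins Lsm5 and Lsm3 rose by 0.77 and 0.92 (edgeR FDR 0.0268 and 0.0289). Ints4 of Integrator fell by 0.51 (edgeR FDR 0.0233) and the minor spliceosome protein Pdcd7 fell by 0.44 (edgeR FDR 0.0469). Leaving out one library at a time, Snrpa remained DEG in 13 of 14 fits (lost without control replicate 5, edgeR FDR 0.0637) and Ints4 in 11, lost without control replicates 3 and 5 or cirrhosis replicate 4. Lsm5 and Snrpf remained in 10 and Lsm3 in 9, with edgeR FDR of at most 0.0939, 0.0963 and 0.0922, each lost without control replicate 3 or 5 and without cirrhosis replicate 3, Lsm5 also without cirrhosis replicate 4, Snrpf without cirrhosis replicate 1 and Lsm3 without control replicate 4 or cirrhosis replicate 1. Pdcd7 and Sf3b6 remained DEG in only 2 and 3 of 14, with edgeR FDR up to 0.111 and 0.119, and both were lost without any 1 of the 4 controls.

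By list, 1 of 7 Sm, 2 of 11 LSm and 2 of 31 major snRNP genes were higher. In turn 1 of 18 Integrator and SNAPc genes and 1 of 11 minor snRNP genes were lower. None of 8 methylation and delivery genes and none of 13 cap, export and import genes passed in either direction, with 2 of each at an unadjusted edgeR p below 0.05 and 0 of each by DESeq2, where 37.6% and 28.2% of all genes were. Genes at the ends of their lists that did not pass were Lsm4 (0.98, edgeR FDR 0.0705) and Lsm1 (-0.22) of the LSm proteins and Snrpb (0.14) of the Sm proteins. For methylation and delivery these were Coprs (0.61) and Carm1 (-0.19), and for cap, export and import Uspl1 (0.51) and Coil (-0.52), both of Cajal bodies. In the remaining lists Snapc2 was at 0.39 and Ints13 at -0.68 (edgeR FDR 0.0569), the U5 protein Prpf8 at -0.63, and the minor snRNP proteins Zmat5 and Rnpc3 at 0.49 and -0.73. Without the libraries that stood apart, 14 were higher and 6 lower of 99, again below the share of 34.6% among all genes.

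With eplerenone, 0 of 99 were DEG against cirrhosis by edgeR and 0 by DESeq2, while 21 had an unadjusted edgeR p below 0.05. The shares over all genes were 0.0147% for DEG, 0.492% for DESeq2 and 14.5% for such a p, so 0 of 99 is what the background gives. All 7 Sm genes and all 11 LSm genes had log2FC below 0, with medians of -0.62 and -0.51 against 0.01 over all genes. Snrpd2 was lowest of the Sm genes at -0.73 (edgeR FDR 0.313) and Lsm3 of the LSm genes at -0.79 (edgeR FDR 0.312). Their least changed members were Snrpb (-0.16) and Lsm1 (-0.02). Ends of the other lists were Coprs (-0.52) and Carm1 (0.30), Uspl1 (-0.58) and Toe1 (0.16), and Snapc2 (-0.30) and Ints13 (0.55). For the major snRNPs they were Snrpa (-0.83) and Eftud2 (0.44), and for the minor snRNPs Zrsr2 (-0.43) and Rnpc3 (0.12). Most Sm and LSm genes lay above control in cirrhosis, 7 of 7 Sm and 10 of 11 LSm. Both comparisons share the cirrhosis livers, and what set these signs was not tested. Without the libraries that stood apart, 1 was higher and 6 lower of 99, against 9.22% of all genes. The lower ones included Snrpf (-1.04, edgeR FDR 0.0370), Snrpe (-1.11, edgeR FDR 0.0415), Lsm5 (-0.83, edgeR FDR 0.0440) and Lsm3 (-0.96, edgeR FDR 0.0479). Against control, Ints4 was the one DEG of 99 in cirrhosis & eplerenone, lower by a log2FC of -0.67 (edgeR FDR 0.0150), against 5.33% of all genes, a call lost without control replicate 3 or 5 (edgeR FDR up to 0.0600). The ends of the lists there, none of them DEG, were Snrpe (-0.39) and Snrpf (0.42), Lsm11 (-0.56) and Lsm8 (0.30), and Strap (-0.24) and Wdr77 (0.26). Coil was at -0.51 and Zpr1 at 0.29, Snapc3 at 0.18, Prpf3 at -0.35 and Snrpa1 at 0.38, and Rnpc3 at -0.61 and Zmat5 at 0.34.

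**Figure D5:**
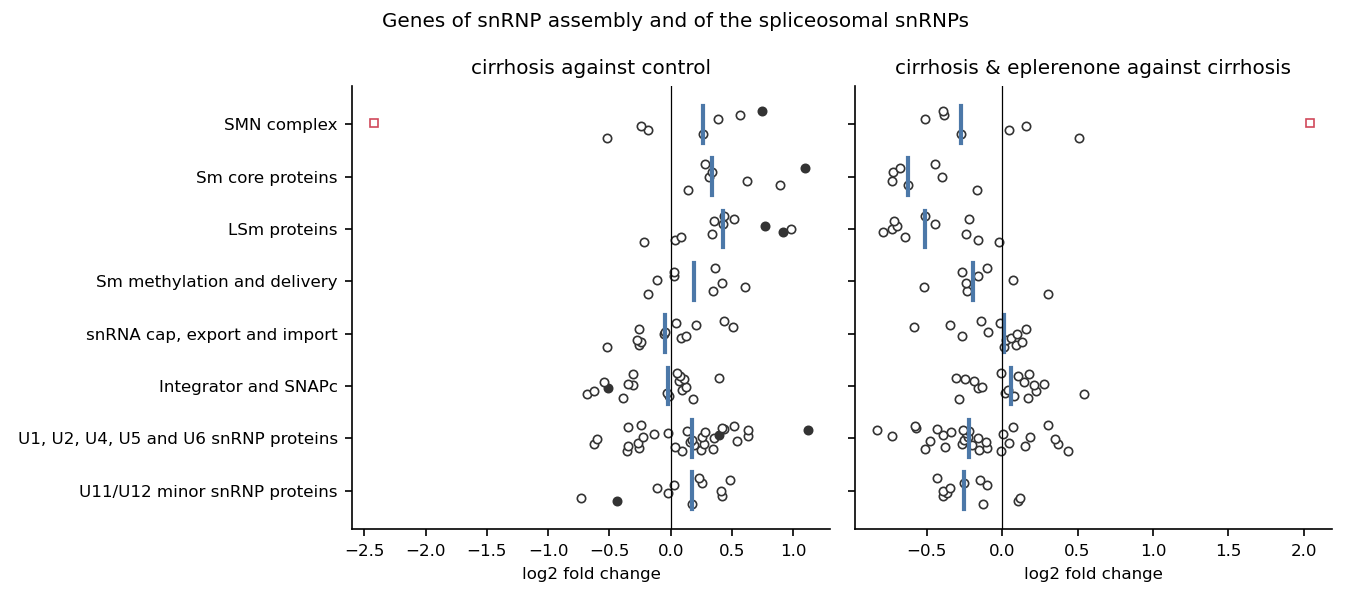
The log2 fold change of each tested gene by list in cirrhosis against control (left) and cirrhosis & eplerenone against cirrhosis (right); filled points are DEG, blue bars are list medians without Gemin6, and the red square is Gemin6. Gemin6 lies at -2.42 and 2.04, outside the range of all other genes shown.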

How the data were processed

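Liver RNA of 14 rats in 3 groups, assigned from the sample labels, was analysed. The authors enriched poly(A) RNA, sequenced 2 × 150 bp, mapped to rn6 with HISAT2 2.1.0 and counted exon reads with featureCounts 2.0.0, multi-mapping reads included. Annotation came from BiomaRt 2.44.4 and Ensembl archive 101. The deposited table holds raw counts per gene without normalization. Multi-mapped reads counted at each place can raise genes with near copies.

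Counts were filtered with filterByExpr (minimum 10), scaled by TMM and fitted in 1 model over 3 groups with the quasi-likelihood test of edgeR 4.0.16 and with DESeq2 1.42.0 (R 4.3.3). Benjamini-Hochberg FDR were taken over 14417 genes. A protein coding gene with FDR below 0.05 in both was DEG, after the study's definition, and DESeq2 gave no p for 15 of them. Standard errors were derived from the quasi-likelihood F. The principal component used the 500 most variable genes. The fit was checked on simulated counts, in which the changed genes differed by more than any partner did. That check does not cover differences as small as those of the partners.

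The members, the 7 pathway lists and the 8 marker lists were chosen with earlier results of these data known. Named were all members, up to 4 DEG and the extremes per list, the 5 genes most like Gemin6, 3 neighbours on each side, and the next 2 genes by p. Alternatives were another test, scaling, filter, sample set and a replicate block. The p-values measure the spread between rats. Sequences are from RefSeq GRCr8.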

Additional observations from a re-analysis of the deposited data

How the results depend on the processing

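Gemin6 kept its direction in every alternative tried: -2.59 to -2.14 in cirrhosis against control, 1.90 to 2.19 in cirrhosis & eplerenone against cirrhosis and -0.55 to -0.10 in cirrhosis & eplerenone against control. Gemin6 was chosen on these livers, so this is a description and not a test. In cirrhosis & eplerenone against cirrhosis it met the DEG definition in 11 of 14 fits leaving out one library. There it did not meet that definition with the replicate block or within prefix 15 or 20. Smn1 kept its direction in cirrhosis against control and stayed DEG in 7 of 8 alternatives other than leaving out one library. The exception was the replicate block (log2FC 0.68, edgeR FDR 0.0942). Same-numbered rats did not deviate together (13 pairs, correlation -0.354 to 0.211, median -0.0955), so the numbers were not taken to pair rats. Gemin8 became DEG in cirrhosis against control under total counts (0.86), as were 3300 of 13628 genes. It also did with at least 10 counts in every sample (0.63), as were 1937 of 10853 genes.

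Scaling by total counts moved the median log2FC over all genes to 0.28, 0.04 and 0.32 in the 3 comparisons. Against that 0.28, Smn1 stood at 1.03 and Gemin8 at 0.86. The DEG of cirrhosis against control were then 2964 higher and 336 lower, in place of 1886 and 916. Partner values that changed sign in that scaling were Gemin4 (0.11) and Gemin5 (0.058) in cirrhosis against control, and Gemin7 (0.22), Gemin2 (0.34), Ddx20 (0.33), Gemin4 (0.19) and Gemin5 (0.26) in cirrhosis & eplerenone against control. Each is below or near the shift of all genes.

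In cirrhosis & eplerenone against control, other sign changes were close to 0. Gemin2 was at 0.0051 with DESeq2, 0.0016 with DESeq2 size factors, 0.0096 without a filter, 0.038 with at least 10 counts in every sample and 0.0095 with 2 groups. Ddx20 was at 0.00021 with DESeq2, 0.0081 without a filter, 0.035 with at least 10 counts, 0.0075 with 2 groups and 0.0091 with the replicate block. Leaving out one library gave -0.069 to 0.073 for Gemin2, -0.17 to 0.13 for Ddx20 and -0.15 to 0.044 for Gemin5. Gemin4 in cirrhosis & eplerenone against cirrhosis ranged from -0.062 to 0.24, and was -0.24 among rats of prefix 20, a split chosen after seeing the data.

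Counts of DEG over all genes moved more. Cirrhosis against control (2802) gave 4634 without the libraries that stood apart, 1688 with the replicate block and 1317 to 4415 leaving out one library. Cirrhosis & eplerenone against cirrhosis (2) gave 67 with DESeq2, 1235 without the libraries that stood apart, 82 in prefix 15 and 0 to 25 leaving out one library. It gave 0 in edgeR with the replicate block (1550 at an unadjusted p below 0.05, 56 with DESeq2) and 0 in edgeR in prefix 20 (140 and 5). Cirrhosis & eplerenone against control (726) gave 1476 with DESeq2, 1318 with total counts, 371 with at least 10 counts, 260 with the replicate block and 208 to 1235 leaving out one library. The causes were not tested. With 40 to 77 counts for Gemin6 in cirrhosis, depth limits single values there more than elsewhere.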
